A study of Mus musculus with 12 samples.

Results

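Alpha granules are the main secretory granules of megakaryocytes and platelets. The genes described here are 8 that encode their cargo: the chemokines Ppbp and Pf4, the adhesive proteins Thbs1 and Mmrn1, the core protein of the granule proteoglycan Srgn, the membrane receptor Selp, the chaperone Clu and the protease inhibitor Timp3. They were chosen by gene symbol and matched to Ensembl identifiers. All 8 were found among the 49671 genes of the count table, and all 8 were among the 15399 genes with enough counts to be tested.

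RNA was sequenced from 12 mouse libraries, each labelled as a pool of embryos at embryonic day 9.5, with embryo as the tissue. They form 4 groups of 3: LYL1 SCL DKO embryos, called double KO here, SCL KO embryos (Scl KO), LYL1 KO embryos (Lyl1 KO) and WT embryos (wild type). Lyl1 and Scl (gene symbol Tal1) are closely related transcription factors of the basic helix-loop-helix family, and the series asks about Lyl1 in primitive erythropoiesis, the making of the first red cells of the embryo. The labels give no treatment, and neither they nor the other sources used here give the alleles, the strain or any Cre driver. The labels call the replicates biological without saying whether each pool came from other litters, so a p-value here reflects only how these libraries vary.

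Megakaryocytes make most alpha granule proteins themselves, pack them into granules and pass them on to the platelets they shed. When platelets are activated, the granules fuse with the surface, releasing chemokines, clotting and growth factors and placing P-selectin on the membrane. SCL binds DNA at E-box motifs, often in a complex with GATA factors, and is required for normal megakaryocyte maturation.

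Total counts per library ranged over 24324685 to 29212443. Levels are given as CPM, the usual depth-scaled unit, with TMM factors for composition. A gene with no count in a library could have a level of up to 3 counts, or 0.0936 to 0.131 CPM depending on the library, by counting error alone. Tal1 lay between 77.7 and 100.4 CPM in double KO, 93.4 and 118 CPM in Scl KO, 542 and 619 CPM in Lyl1 KO and 513 and 643 CPM in wild type. Lyl1 lay between 56.5 and 108 CPM in double KO, 118 and 210.3 CPM in Scl KO, 85.5 and 90.4 CPM in Lyl1 KO and 149 and 203 CPM in wild type, so each gene was lower in every library labelled as lacking it than in every other library. The libraries were checked against markers of the labelled tissue. The summed level of 18 markers of embryonic heart, nerve, muscle, gut and epithelium was at most 26.6 CPM in any library, 3 of them (Myh6, Nkx2-5 and Foxa2) had no count anywhere, and only 6 reached 1 CPM in any library. The summed level of 13 megakaryocyte markers was between 6012 and 25925 CPM, so by these markers the libraries did not match a whole embryo, and which cells were used is not given in the labels. In bulk RNA such as this, fewer cells of a type and less RNA per cell cannot be told apart.

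Promoter windows were read from RefSeq (GRCm38.p6), each holding 250 bases before and 50 bases after a transcription start. Of the 8 genes, 6 matched, with 7 windows, since Srgn has 2. The windows of 5 genes are shown because these genes cover the range of responses described below: Ppbp, Pf4 and Mmrn1 fell in the double KO, Timp3 rose in Scl KO, and Selp had no called change. Capitals mark matches to 3 motifs, searched on both strands. The first, GATAA, is the core that GATA factors bind. The second, CAGATG, is an E-box form that SCL complexes prefer. The third, AGGAAG, is a core bound by ETS factors. A match on the opposite strand is printed as its reverse complement.
Ppbp (chr5:90768268-90768567, forward strand): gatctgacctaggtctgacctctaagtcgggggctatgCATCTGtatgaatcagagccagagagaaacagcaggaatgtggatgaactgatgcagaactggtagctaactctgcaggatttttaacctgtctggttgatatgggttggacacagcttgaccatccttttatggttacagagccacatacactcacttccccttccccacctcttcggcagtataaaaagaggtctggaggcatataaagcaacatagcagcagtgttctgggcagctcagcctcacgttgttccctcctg
Pf4 (chr5:90772185-90772484, forward strand): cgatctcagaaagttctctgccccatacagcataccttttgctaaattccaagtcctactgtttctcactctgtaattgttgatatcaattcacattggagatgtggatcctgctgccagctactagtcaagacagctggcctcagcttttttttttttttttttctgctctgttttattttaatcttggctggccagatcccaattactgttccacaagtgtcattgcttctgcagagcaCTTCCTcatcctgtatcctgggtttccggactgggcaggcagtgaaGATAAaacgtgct
Mmrn1 (chr6:60944067-60944366, forward strand): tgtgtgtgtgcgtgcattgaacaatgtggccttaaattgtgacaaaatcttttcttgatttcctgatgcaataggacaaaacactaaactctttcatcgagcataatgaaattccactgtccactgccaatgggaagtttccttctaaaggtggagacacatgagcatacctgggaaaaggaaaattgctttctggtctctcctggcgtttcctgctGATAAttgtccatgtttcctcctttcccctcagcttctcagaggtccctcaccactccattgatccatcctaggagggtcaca
Selp (chr1:164115014-164115313, forward strand): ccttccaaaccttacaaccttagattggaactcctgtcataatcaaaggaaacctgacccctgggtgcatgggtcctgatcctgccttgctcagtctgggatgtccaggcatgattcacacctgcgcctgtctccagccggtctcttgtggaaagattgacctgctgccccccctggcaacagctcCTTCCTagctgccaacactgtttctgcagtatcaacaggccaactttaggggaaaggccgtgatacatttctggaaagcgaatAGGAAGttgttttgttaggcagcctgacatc
Timp3 (chr10:86300162-86300461, forward strand): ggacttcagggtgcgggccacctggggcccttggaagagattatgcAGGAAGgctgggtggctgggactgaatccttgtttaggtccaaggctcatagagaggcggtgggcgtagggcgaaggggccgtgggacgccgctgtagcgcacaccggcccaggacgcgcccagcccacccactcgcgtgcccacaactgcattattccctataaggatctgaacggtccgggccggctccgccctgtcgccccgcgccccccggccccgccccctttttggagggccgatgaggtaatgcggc

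GATAA was found in 2 of the 7 windows, that of Pf4 at base 38 after the start and that of Mmrn1 at 33 bases before it, and 25.4% of all 32841 promoter windows hold it. CAGATG was found in 2 windows, at 212 bases before the start of Ppbp and 239 bases before the start in the second Srgn window, against 17.2% of all windows. The general E-box CANNTG, which includes CAGATG, was in 7 of 7 windows and in 72.3% of all windows. AGGAAG was in 3 windows, at 9 bases before the start of Pf4, 64 before and 20 after that of Selp and 204 before that of Timp3, against 35.4% of all windows. The Mmrn1 window, from 60944067, lies inside the counted gene, which begins at 60924976. The second Srgn window, from 62507708, also lies inside its counted gene (62493833 to 62527451). Which starts were used in these libraries was not tested. These are matches of letters, and binding was not measured.

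A gene was called where its adjusted p in edgeR's quasi-likelihood test, with Benjamini-Hochberg adjustment over all 15399 genes, was under 0.05. Changes are on the log2 scale with their standard error (SE), while a level after the name of a group is its mean with the standard deviation (SD) of its 3 libraries. In the double KO against wild type, 6 of the 8 cargo genes were lower and none was higher, beside 34.5% of all genes called (16.4% higher and 18.1% lower). Scl KO against wild type had 1 higher (Timp3) and 1 lower (Thbs1), beside 5.03% of all genes called (2.29% higher and 2.73% lower). With the replicate number as a block, the genes called in this comparison numbered 1226, against 774 without it, and the cargo genes called were again Timp3 and Thbs1. None of the 8 was called in Lyl1 KO against wild type, beside 0.0714% of all genes (0.039% higher and 0.0325% lower). At an unadjusted p under 0.05 there were 2 of the 8 (Selp and Timp3), beside 1230 of all 15399 genes. DESeq2's Wald test and limma-voom called 0 of the 8, beside 103 and 8 of all genes. Against Scl KO, the double KO was lower for 7, all but Selp, beside 19.1% of all genes called (8.37% higher and 10.8% lower). Against Lyl1 KO, it was lower for 6 and higher for Timp3, beside 35.2% of all genes called (17.4% higher and 17.9% lower). The median log2 change of the 8 genes was -0.98 in the double KO against wild type, -0.15 in Scl KO against wild type and 0.08 in Lyl1 KO against wild type, while the medians over all genes were 0.0415, 0.0040 and -0.0022 in the same comparisons. The comparisons share libraries and are not independent of one another. With library totals in place of TMM factors, the higher genes made up 81.0% of calls in the double KO against wild type (47.7% with TMM), 79.4% in the double KO against Scl KO (43.7%), 83.5% in the double KO against Lyl1 KO (49.3%), 62.0% in Scl KO against wild type (45.6%) and 78.5% of interactions (37.5%). That scaling moved the median log2 change of all genes to 0.46 in the double KO against wild type and 0.12 in Scl KO against wild type. The calls of the 6 lower genes in the double KO against wild type, and of Thbs1 and Timp3 in Scl KO against wild type, held under every alternative tried and without any 1 library.

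**Figure D1:**
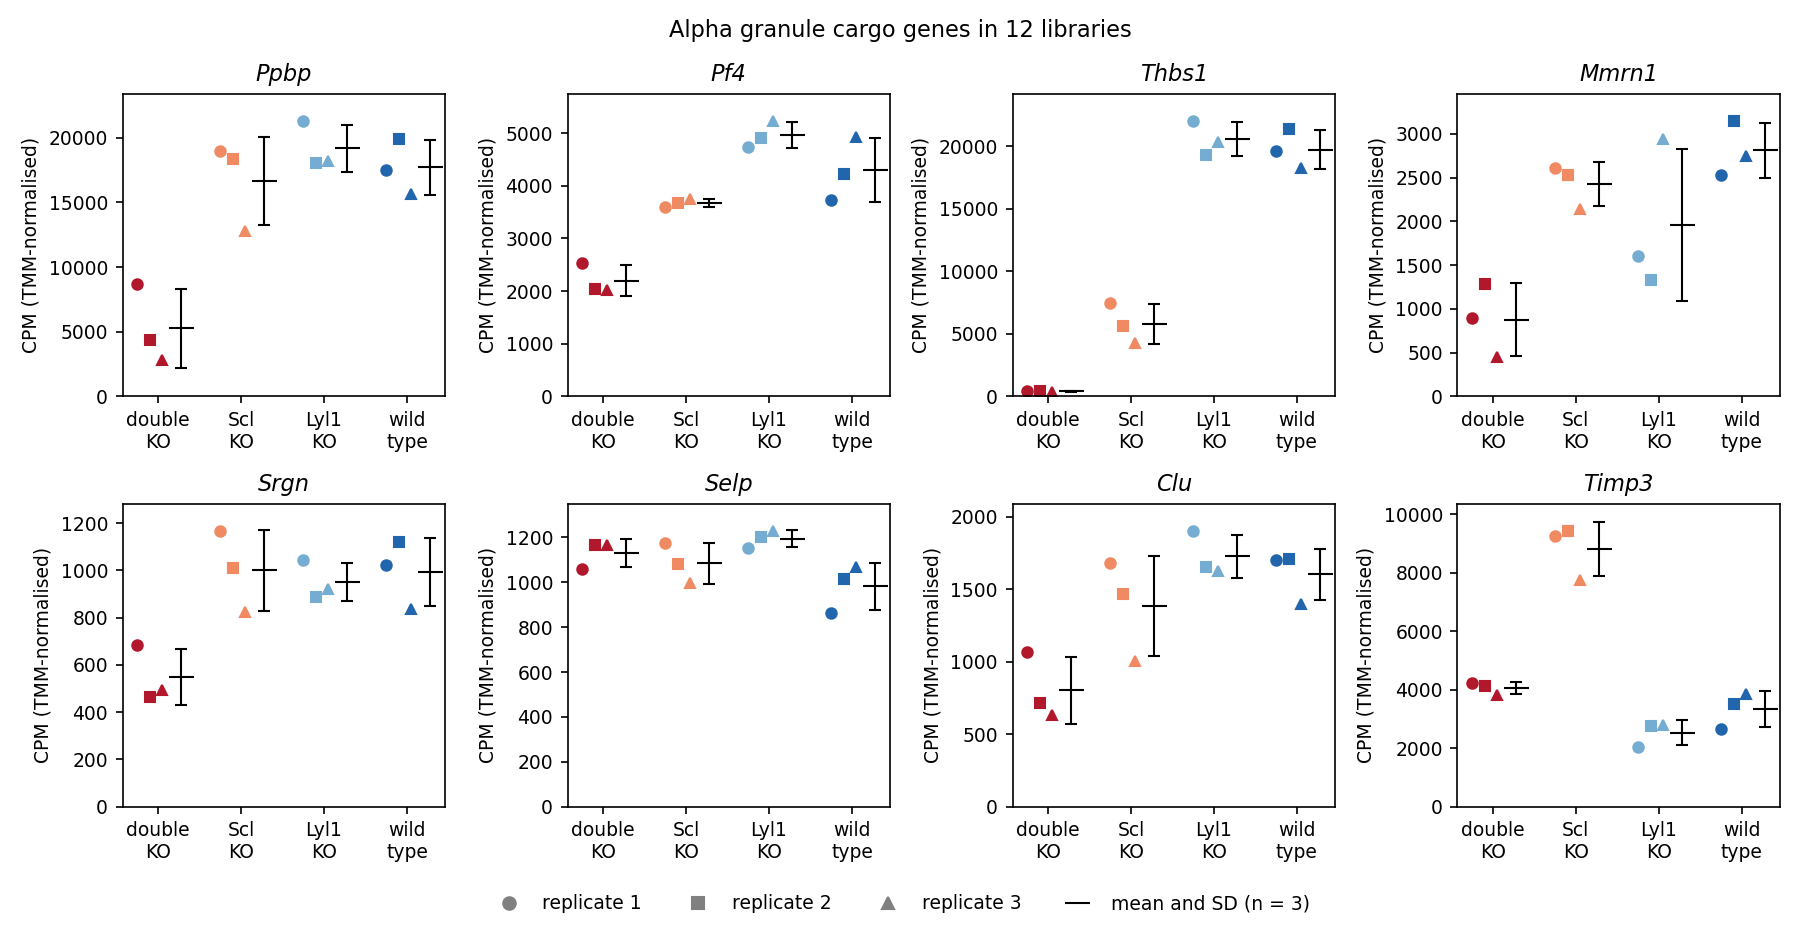
TMM-normalised CPM of the 8 cargo genes in 12 libraries, by genotype, with 1 symbol per replicate number and the mean ± SD (n = 3) beside each group. The double KO lies below wild type without overlap for 6 genes (21.1% of all tested genes lie below without overlap and 21.4% above), Thbs1 has an intermediate level in Scl KO, and Timp3 is highest in Scl KO.

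Thbs1 encodes thrombospondin-1, an adhesive glycoprotein of the granule that binds CD36 and CD47 and can activate TGF-beta (ENSMUSG00000040152, chromosome 2, 118111876 to 118127133, GRCm38). It had 412, 432 and 378 CPM in double KO, 7454, 5655 and 4251 CPM in Scl KO, 22026, 19297 and 20373 CPM in Lyl1 KO and 19623, 21389 and 18232 CPM in wild type. The Lyl1 KO and wild-type libraries overlapped, all 3 Scl KO libraries lay below them, and all 3 double KO libraries lay far below the Scl KO libraries. Against wild type, Thbs1 fell by 5.60 ± 0.24 on the log2 scale in the double KO (adjusted p = 6.55e-08), to 2.06% of the wild-type mean. Scl KO alone had a fall of 1.77 ± 0.20 against wild type (adjusted p = 0.000412), to 29.3%. Between the double KO and Scl KO the fall was 3.83 ± 0.22 (adjusted p = 4.76e-06), while the log2 change of Lyl1 KO against wild type was 0.06 ± 0.19 (adjusted p = 0.966). The level in the double KO was not near the limit of detection, with between 12096 and 13004 counts in each library. The most even group was Lyl1 KO, with a coefficient of variation of 6.68%, and the least even was Scl KO, with 27.7%.

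Ppbp encodes pro-platelet basic protein, the precursor of the chemokine CXCL7 that attracts neutrophils through CXCR2 (ENSMUSG00000029372, chromosome 5, 90768518 to 90770063). It had 8689.7, 4324 and 2782 CPM in double KO, 18940.3, 18326 and 12764 CPM in Scl KO, 21282, 18072 and 18162 CPM in Lyl1 KO and 17527, 19875 and 15678 CPM in wild type. The double KO libraries lay below all others and differed the most among themselves, with a coefficient of variation of 58.2%, against 20.4% in Scl KO, 9.53% in Lyl1 KO and 11.9% in wild type. The other groups overlapped. Ppbp fell by 1.75 ± 0.34 on the log2 scale in the double KO against wild type (adjusted p = 0.00208), to 29.8% of the wild-type mean. Against Scl KO the double KO fell by 1.66 ± 0.34 (adjusted p = 0.00529). Neither single KO had a called change against wild type: the log2 change was -0.09 ± 0.33 for Scl KO (adjusted p of 0.932) and 0.12 ± 0.33 for Lyl1 KO (adjusted p of 0.957). The sign for Scl KO turned with library totals in place of TMM (0.02) and without Scl KO replicate 3 (0.07).

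Pf4 encodes platelet factor 4 (CXCL4), a chemokine that binds heparin and is stored on the granule proteoglycan (ENSMUSG00000029373, chromosome 5, 90772435 to 90773383). It had 2542, 2047 and 2015 CPM in double KO, 3591, 3673 and 3742 CPM in Scl KO, 4744, 4912 and 5231 CPM in Lyl1 KO and 3727, 4229.8 and 4934 CPM in wild type. The double KO libraries lay below all others. Scl KO lay below Lyl1 KO without overlap, and both overlapped with wild type. Pf4 fell by 0.96 ± 0.15 on the log2 scale in the double KO against wild type (adjusted p = 0.000376), to 51.2% of the wild-type mean, and by 0.74 ± 0.15 in the double KO against Scl KO (adjusted p = 0.00436). The log2 change was -0.23 ± 0.15 for Scl KO against wild type (adjusted p = 0.465) and 0.21 ± 0.15 in Lyl1 KO against wild type (adjusted p = 0.751).

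The Ppbp and Pf4 genes lie side by side on chromosome 5, with starts 3.92 kb apart on the same strand. The ratio of Ppbp to Pf4 in CPM per kb of exon was 2.28, 1.41 and 0.919 in double KO, 3.51, 3.32 and 2.27 in Scl KO, 2.99, 2.45 and 2.31 in Lyl1 KO and 3.13, 3.13 and 2.12 in wild type. The other chemokine genes of the same cluster differed in direction. Cxcl5, a neutrophil chemokine 13.1 kb before the start of Pf4, had 47.6, 29.2 and 12.2 CPM in double KO, 67.6, 68.3 and 38.4 CPM in Scl KO, 65.1, 62.7 and 66.7 CPM in Lyl1 KO and 65.4, 77.6 and 55.4 CPM in wild type. It fell by 1.16 ± 0.37 on the log2 scale in the double KO against wild type (adjusted p = 0.0306), a call lost with library totals in place of TMM, with no filter on low counts, with only the 6 libraries compared and without either double KO replicate 2, wild type replicate 1 or wild type replicate 2. Cxcl3, another neutrophil chemokine 13.7 kb after the start of Pf4, had 30.7, 25.4 and 19.5 CPM in double KO, 66.8, 68.6 and 69.6 CPM in Scl KO, 8.67, 13.5 and 15.4 CPM in Lyl1 KO and 3.83, 5.84 and 11.4 CPM in wild type. Both groups without Scl lay above the other groups. Cxcl3 had a log2 change of 1.84 ± 0.33 in the double KO against wild type (adjusted p = 0.00127) and of 3.27 ± 0.35 for Scl KO against wild type (adjusted p = 0.000284), and both were rises. Between the double KO and Scl KO it fell by 1.44 ± 0.32 (adjusted p = 0.0084). Cxcl1 lies 118.8 kb after the start of Pf4, and its log2 change of -2.76 ± 0.77 in the double KO against wild type (adjusted p = 0.016) was lost without wild type replicate 3, the wild-type library with the highest level (10.9 CPM), without either double KO replicate 1 or double KO replicate 3, and with no filter on low counts. Cxcl15 had too few counts to be tested.

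**Figure D2:**
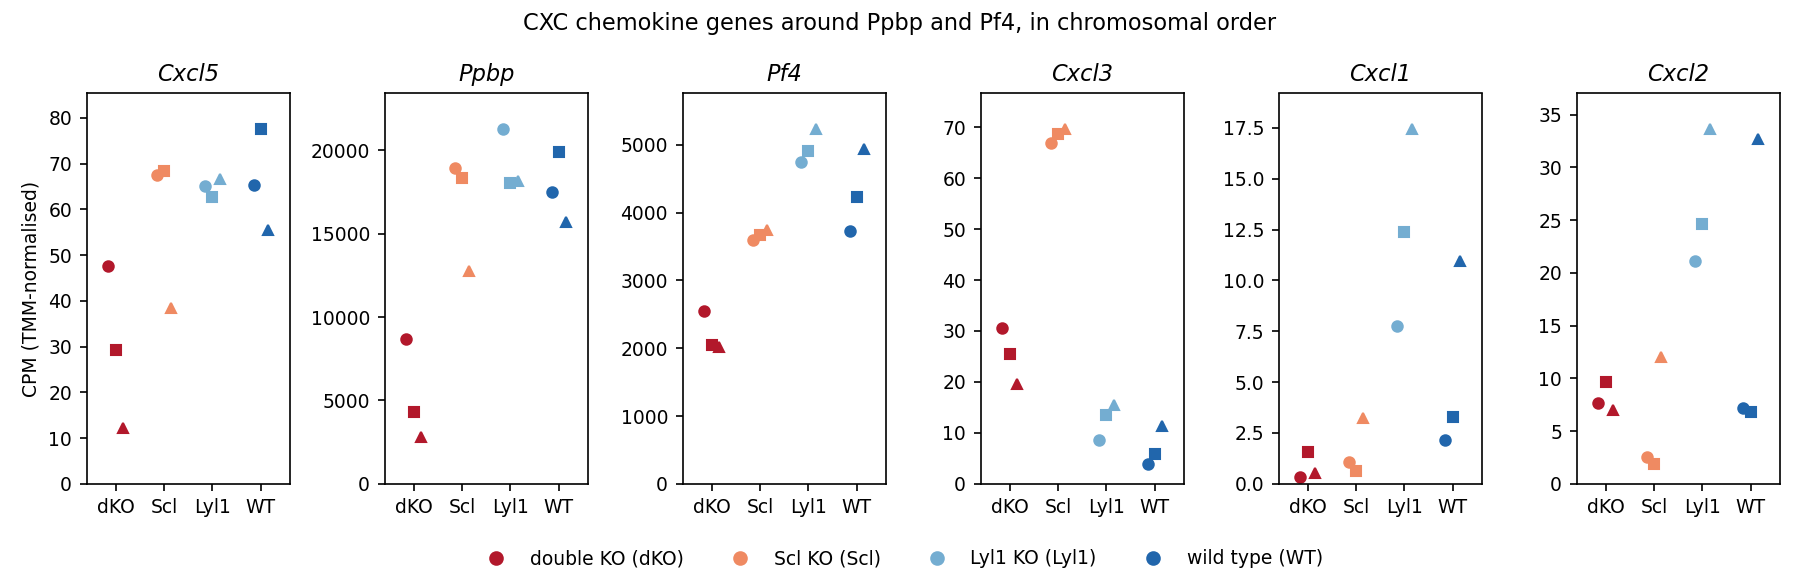
TMM-normalised CPM of 6 CXC chemokine genes of the cluster on mouse chromosome 5, 1 panel per gene in chromosomal order and 1 point per library, with a separate linear axis from 0 in each panel. Ppbp and Pf4 are lower in the double KO than in wild type, and so is Cxcl5, with its call lost in 6 of 14 alternatives, while Cxcl3 is higher in the double KO and highest in Scl KO, at 66.8 to 69.6 CPM.

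Mmrn1 encodes multimerin-1, which binds coagulation factor V in the granule (ENSMUSG00000054641, chromosome 6, 60924976 to 60989378). It had 893, 1284 and 451 CPM in double KO, 2609, 2529 and 2141 CPM in Scl KO, 1599, 1326 and 2946 CPM in Lyl1 KO and 2533, 3146 and 2750.4 CPM in wild type. The double KO libraries lay below all others. Lyl1 KO replicate 3 lay among the wild-type libraries, while Lyl1 KO replicates 1 and 2 lay between the double KO and the other groups. Mmrn1 fell by 1.68 ± 0.35 on the log2 scale in the double KO against wild type (adjusted p = 0.0033), to 31.2% of the wild-type mean, and by 1.47 ± 0.35 in the double KO against Scl KO (adjusted p = 0.0128). Its fall of 1.16 ± 0.35 in the double KO against Lyl1 KO (adjusted p = 0.0225) missed the threshold without Lyl1 KO replicate 3 (adjusted p = 0.115) and with library totals in place of TMM (adjusted p = 0.0892). It also missed it with no filter on low counts (adjusted p = 0.0649) and with only the 6 libraries compared (adjusted p = 0.0675). The log2 change was -0.21 ± 0.35 for Scl KO against wild type (adjusted p = 0.813) and -0.52 ± 0.35 in Lyl1 KO against wild type (adjusted p = 0.737).

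Srgn encodes serglycin, the proteoglycan core on whose chains Pf4 and other basic proteins are held (ENSMUSG00000020077, chromosome 10, 62493833 to 62527451). It had 683, 463 and 495 CPM in double KO, 1165, 1011 and 824 CPM in Scl KO, 1042, 889 and 919 CPM in Lyl1 KO and 1022, 1121 and 836 CPM in wild type. The double KO libraries lay below all others, and the other groups overlapped. Srgn fell by 0.86 ± 0.18 on the log2 scale in the double KO against wild type (adjusted p = 0.00324), to 55.1% of the wild-type mean, and by 0.87 ± 0.18 in the double KO against Scl KO (adjusted p = 0.00568). Against wild type the log2 change was 0.01 ± 0.18 in Scl KO (adjusted p = 0.987) and -0.06 ± 0.18 in Lyl1 KO (adjusted p = 0.955), and either sign turned when 1 library was left out.

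Clu encodes clusterin, a secreted chaperone carried in alpha granules (ENSMUSG00000022037, chromosome 14, 65968483 to 65981548). It had 1065, 712 and 632 CPM in double KO, 1679, 1464 and 1008 CPM in Scl KO, 1900.3, 1656 and 1623 CPM in Lyl1 KO and 1701, 1708 and 1399 CPM in wild type. The double KO lay below wild type and Lyl1 KO without overlap, while double KO replicate 1 lay above Scl KO replicate 3. Clu fell by 1.00 ± 0.22 on the log2 scale in the double KO against wild type (adjusted p = 0.00437), to 50.1% of the wild-type mean. Its fall of 0.78 ± 0.22 in the double KO against Scl KO (adjusted p = 0.0267) missed the threshold without either Scl KO replicate 1 (adjusted p = 0.112) or Scl KO replicate 2 (adjusted p = 0.0884). It also missed it without either double KO replicate 2 (adjusted p = 0.0936) or double KO replicate 3 (adjusted p = 0.0713), and with only the 6 libraries compared (adjusted p = 0.10025). The log2 change was -0.21 ± 0.22 for Scl KO against wild type (adjusted p = 0.681) and 0.11 ± 0.22 in Lyl1 KO against wild type (adjusted p = 0.937).

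Selp encodes P-selectin, the receptor of the granule membrane that moves to the surface on activation and binds PSGL-1 on leukocytes (ENSMUSG00000026580, chromosome 1, 164115264 to 164150026). It had 1059, 1168 and 1166 CPM in double KO, 1176, 1083 and 995 CPM in Scl KO, 1152, 1202 and 1227 CPM in Lyl1 KO and 865, 1015 and 1066 CPM in wild type. All 12 libraries lay within a narrow range, and the Lyl1 KO libraries lay above wild type without overlap. No change of Selp was called: the log2 change was 0.20 ± 0.12 in the double KO (adjusted p = 0.204), 0.14 ± 0.12 in Scl KO (adjusted p = 0.590) and 0.28 ± 0.12 in Lyl1 KO (adjusted p = 0.573), each against wild type. With library totals in place of TMM, the double KO had a called log2 change of 0.62 against wild type (adjusted p = 0.0013), which is 0.17 above the median of all genes under that scaling. The same scaling also called Selp higher in the double KO against Scl KO (0.37, adjusted p = 0.0359) and, with its sign turned, in the double KO against Lyl1 KO (0.39, adjusted p = 0.0165).

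Timp3 encodes a tissue inhibitor of metalloproteinases that binds the extracellular matrix (ENSMUSG00000020044, chromosome 10, 86300372 to 86349506). It had 4244, 4114 and 3836 CPM in double KO, 9262, 9421 and 7767 CPM in Scl KO, 2035, 2761 and 2791 CPM in Lyl1 KO and 2662, 3499.8 and 3854 CPM in wild type. The Scl KO libraries lay above all others, and the double KO overlapped with wild type. Lyl1 KO had the lowest mean, and its libraries also overlapped with wild type. Scl KO had a rise of 1.40 ± 0.18 in Timp3 on the log2 scale against wild type (adjusted p = 0.000995), a level 2.64-fold higher. Against Scl KO the double KO fell by 1.12 ± 0.18 (adjusted p = 0.00135). Its log2 change against wild type was 0.28 ± 0.18 (adjusted p = 0.237), and with library totals in place of TMM it was 0.69 and called (adjusted p = 0.00515). The rise of 0.68 ± 0.18 in the double KO against Lyl1 KO (adjusted p = 0.0105) missed the threshold without Lyl1 KO replicate 1 (adjusted p = 0.0521). Lyl1 KO had a log2 change of -0.40 ± 0.18 against wild type (adjusted p of 0.600). Timp3 lies within the gene Syn3 on the opposite strand, and the counting used strand.

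**Figure D3:**
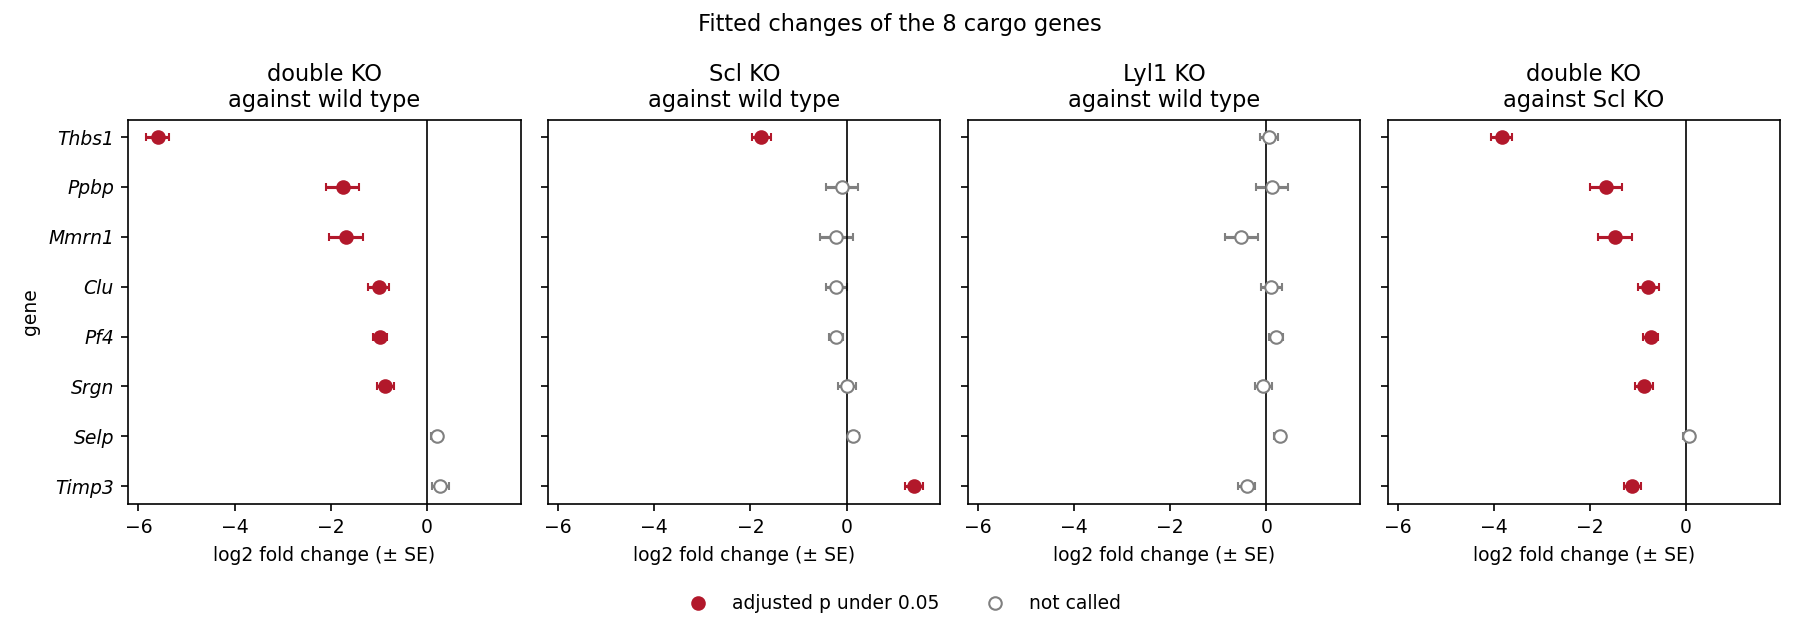
Log2 fold changes ± SE of the 8 cargo genes in 4 comparisons, with filled points for adjusted p under 0.05. Thbs1 is farthest below 0 in the double KO against wild type (-5.60), Timp3 is above 0 and called in Scl KO against wild type (1.40), and no gene is called in Lyl1 KO against wild type.

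Whether the loss of Lyl1 had a different effect without Scl than with it was tested as an interaction in the same fit, which called 9.38% of all genes (3.51% positive and 5.86% negative). It called 3 of the 8 cargo genes, all negative. The interaction was -3.89 ± 0.28 for Thbs1 (adjusted p = 8.52e-05), -0.94 ± 0.21 for Pf4 (adjusted p = 0.0163) and -1.78 ± 0.47 for Ppbp (adjusted p = 0.0378) on the log2 scale. For these genes the double KO lay lower than the separate changes of the single KOs add up to on that scale. The Ppbp call missed the threshold with no filter on low counts and without any 1 of 9 of the 12 libraries and held without double KO replicate 1, double KO replicate 3 or Scl KO replicate 3. The other 5 interactions were negative and not called, at -0.81 for Srgn (adjusted p = 0.0705), -0.89 for Clu (adjusted p = 0.0965), -0.72 for Timp3 (adjusted p = 0.1), -0.95 for Mmrn1 (adjusted p = 0.264) and -0.22 for Selp (adjusted p = 0.461). With the replicate number as a block, Srgn (adjusted p = 0.0168) and Clu (adjusted p = 0.0137) were called as well. DESeq2's Wald test called 6 of the 8, with Srgn, Clu and Timp3 added, and 5 were called without either Scl KO replicate 3 or double KO replicate 1. Over all 15399 genes the interaction calls numbered 1444 in the main fit, 2100 with the block and 2261 with the Wald test. They were 1665 of 15919 without Scl KO replicate 3 and 1925 of 15857 without double KO replicate 1.

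The order of the cargo genes by level differed between genotypes. By CPM per kb of exon, Thbs1 was the lowest of the 8 in the double KO, at 67.0 ± 4.52. It followed Ppbp, Pf4 and Timp3 in Scl KO, at 953 ± 264, and followed Ppbp and Pf4 in Lyl1 KO, at 3386 ± 226, and in wild type, at 3252 ± 261. Ppbp had the highest mean level per kb in every group, at 4862 ± 2829 in double KO, 15399 ± 3142 in Scl KO, 17703 ± 1687 in Lyl1 KO and 16337 ± 1942 in wild type, followed by Pf4. Only double KO replicate 3 had more Pf4 than Ppbp per kb. Mmrn1, Clu and Srgn lay close together in wild type, at 479 ± 52.9, 466 ± 51.4 and 452 ± 66.0 CPM per kb, and did not differ beyond their spread.

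The counts of the 8 genes together made up 1.86% ± 0.35 of all counts in double KO, 4.04% ± 0.38 in Scl KO, 4.72% ± 0.16 in Lyl1 KO and 4.73% ± 0.24 in wild type. Their summed CPM was 15296 ± 3970 in double KO, 40844 ± 6509 in Scl KO, 53056 ± 2839 in Lyl1 KO and 51464 ± 3941 in wild type. The make-up of this sum differed between genotypes. Thbs1 was 2.10% to 3.21% of it in double KO, 12.7% to 16.2% in Scl KO, 38.2% to 39.5% in Lyl1 KO and 37.4% to 39.5% in wild type. Timp3 was 21.7% to 32.6% of it in double KO, 20.2% to 23.2% in Scl KO, 3.65% to 5.51% in Lyl1 KO and 5.36% to 7.91% in wild type. These are shares of reads, not corrected for transcript length.

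**Figure D4:**
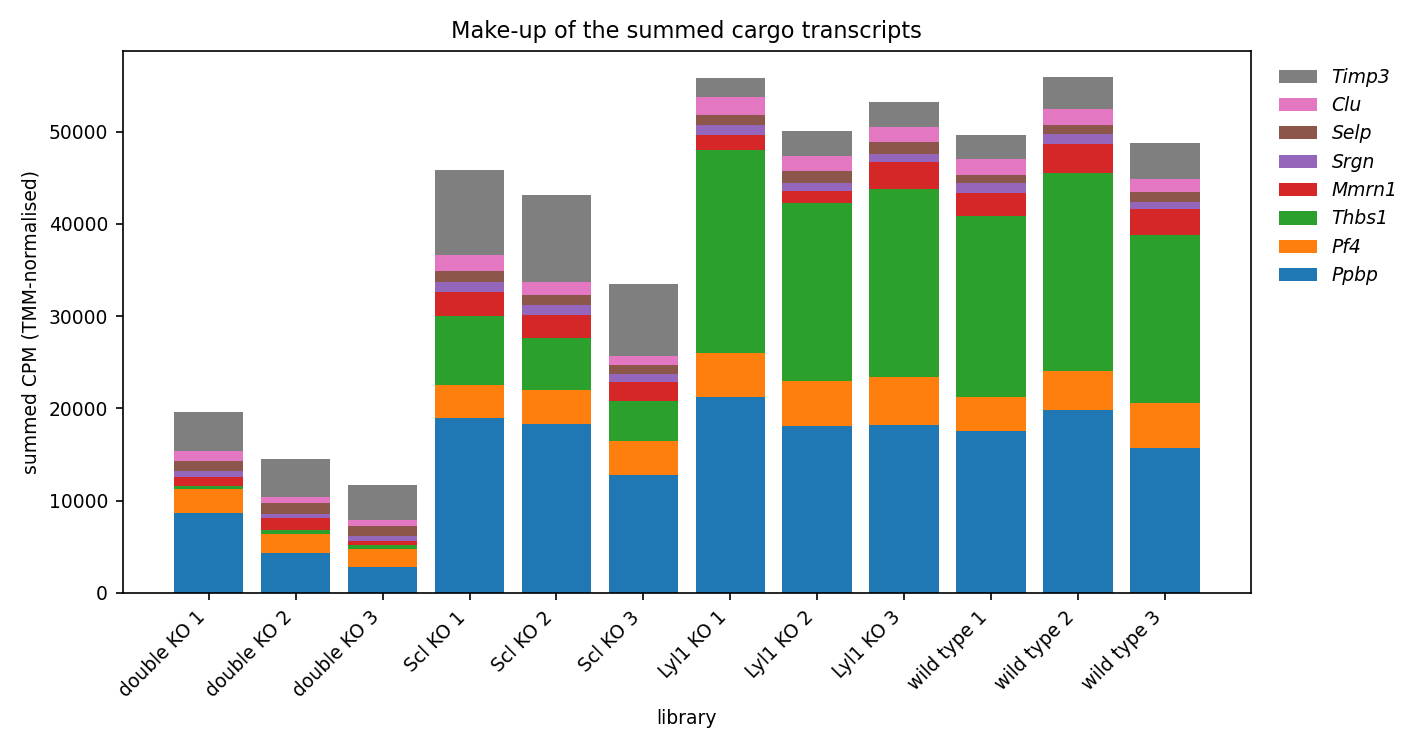
Summed TMM-normalised CPM of the 8 cargo genes in each library, with 1 colour per gene and bars starting at 0. The double KO sums are the lowest, Thbs1 fills over 37% of the Lyl1 KO and wild-type bars and at most 3.21% of a double KO bar, and Timp3 fills over 20% of each Scl KO and double KO bar.

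Markers of megakaryocytes moved in the same direction as most of the cargo. Of 13 such genes, among them Itga2b, Gp1ba and Gp5, 12 were lower in the double KO against wild type and none was higher. Over all genes, 34.5% were called in that comparison (18.1% lower and 16.4% higher). Their summed level was 11869, 8713 and 6012 CPM in double KO, 19095, 18244 and 13933 CPM in Scl KO, 25925, 21854 and 21816 CPM in Lyl1 KO and 22246, 23999 and 20264 CPM in wild type. The double KO libraries lay below all others and in the same order as their Ppbp levels. As a percentage of this sum in the same library, Thbs1 was at 3.47% to 6.28% in double KO, 30.5% to 39.0% in Scl KO, 85.0% to 93.4% in Lyl1 KO and 88.2% to 90.0% in wild type. Ppbp was at 46.3% to 73.2% in double KO and 77.4% to 82.8% in wild type. Pf4 was at 21.4% to 33.5% in double KO and 16.8% to 24.3% in wild type, overlapping. Srgn was at 5.32% to 8.23% in double KO and 4.12% to 4.67% in wild type. Clu was at 8.17% to 10.5% in double KO and 6.90% to 7.65% in wild type, and Selp was at 8.93% to 19.4% in double KO and 3.89% to 5.26% in wild type. Timp3 was at 35.8% to 63.8% in double KO and 11.97% to 19.02% in wild type, and Mmrn1 was at 7.51% to 14.7% in double KO and 11.4% to 13.6% in wild type. Relative to this sum, Thbs1 and Ppbp were below wild type in the double KO, Srgn, Clu, Selp and Timp3 were above it, and Pf4 and Mmrn1 overlapped with it. The sum itself averaged 8865 CPM in double KO and 22170 CPM in wild type. A gene of unchanged level therefore lies above wild type by this measure. The share of all genes above or below wild type relative to the sum was not counted. The sum is weighted to its highest member, Itga2b, at 4760, 3839 and 2885 CPM in double KO and 7403, 7908 and 7367 CPM in wild type. Taken gene by gene, the 13 markers had a median log2 change of -1.52 in the double KO against wild type, beside -1.75 ± 0.34 for Ppbp. Ppbp therefore lay below the sum but not clearly below the typical marker. What part the number of megakaryocytes had in the cargo levels was not tested.

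Some cargo genes are also expressed outside the megakaryocyte line. The summed level of 13 macrophage markers, the highest of them Lyz2, was between 4034 and 4970.0 CPM in double KO, 4433 and 6258 CPM in Scl KO, 6202 and 9650.1 CPM in Lyl1 KO and 5083 and 8766 CPM in wild type, and 3 of 13 were called in the double KO against wild type, all lower, beside 34.5% of all genes called (18.1% lower). The summed level of 13 endothelial markers was 561 ± 81.3 CPM in double KO, 866 ± 89.6 CPM in Scl KO, 1527 ± 122 CPM in Lyl1 KO and 1324 ± 83.9 CPM in wild type. Of the 12 tested, 5 were lower and 1 was higher in the double KO against wild type, beside 34.5% of all genes called (18.1% lower and 16.4% higher). Of the endothelial markers, Sox17, Nos3, Robo4 and Sox18 averaged under 1 CPM, and Pecam1, which megakaryocytes also express, was among the 3 highest. The fall of the sum was mostly that of Pecam1 and Esam. Pecam1 was at 260, 231 and 167 CPM in double KO and 781, 796 and 625 CPM in wild type. Esam was at 109, 64.3 and 38.0 CPM in double KO and 309, 324 and 261 CPM in wild type. Tie1 was higher in the double KO, at 161, 117 and 119 CPM, than in wild type, at 80.3, 88.1 and 112 CPM, and Flt1 overlapped. Mesenchymal and stromal markers, of interest beside Timp3, summed to between 25.6 and 63.3 CPM in double KO, 35.6 and 371 CPM in Scl KO, 15.5 and 98.2 CPM in Lyl1 KO and 161 and 191 CPM in wild type. Within Scl KO the stromal sum was 371, 149 and 35.6 CPM, beside Timp3 levels of 9262, 9421 and 7767 CPM in the same libraries. Mast cell and basophil markers summed to at most 155 CPM, with Tpsab1 at 0 everywhere. Neutrophil markers summed to between 441 and 1076 CPM in double KO, 256 and 435 CPM in Scl KO, 335 and 685 CPM in Lyl1 KO and 329.8 and 663 CPM in wild type. Erythroid markers summed to between 47.2 and 353 CPM in double KO, 323 and 843 CPM in Scl KO, 1192 and 1628 CPM in Lyl1 KO and 583 and 686 CPM in wild type. By this sum the double KO lay below wild type without overlap, and Lyl1 KO lay above all others. The largest part of the sum in Lyl1 KO was the globin gene Hbb-bt. It was at 787, 587 and 1017 CPM in Lyl1 KO and 234, 238 and 215 CPM in wild type. Klf1, Alas2 and Slc4a1 were under 1 CPM in every library. Of 11 such markers that were counted, 7 could be tested, with 3 lower and 1 higher in the double KO against wild type, beside 34.5% of all genes called. None of the 7 was called in Lyl1 KO against wild type, beside 0.0714% of all genes. The globin genes among them have near-identical copies, so their counts are uncertain, and the embryonic globin Hba-x was too low to be tested. The part of these cells in the cargo levels was not tested.

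Other genes for alpha granule cargo were given by a list of 31, of which 25 could be tested. Against wild type, 11 were lower and 3 were higher in the double KO, beside 34.5% of all genes called (18.1% lower and 16.4% higher), with a median log2 change of -0.90. Of the 11 lower calls, those of Sparc and of Cxcl5, which is also a relative by family, were each lost under 6 of 14 alternatives. For Sparc these were no filter on low counts and leaving out any 1 of the double KO replicates, wild type replicate 1 or wild type replicate 2. The lower genes with the smallest adjusted p were Pdgfb and Pdgfa, the chains of platelet-derived growth factor, Vegfc, a lymphatic growth factor, and F5, coagulation factor V. Pdgfb was at 14.6 ± 2.25 CPM in double KO, 27.7 ± 6.57 CPM in Scl KO, 122 ± 7.40 CPM in Lyl1 KO and 115 ± 9.63 CPM in wild type. It fell by 2.99 ± 0.18 on the log2 scale in the double KO (adjusted p = 5.58e-07) and by 2.06 ± 0.17 in Scl KO (adjusted p = 4.2e-05), each against wild type. F5, the partner of multimerin-1, was at 632 ± 226 CPM in double KO, 2382 ± 863 CPM in Scl KO, 5139 ± 801 CPM in Lyl1 KO and 4798 ± 477 CPM in wild type, and it fell by 2.93 ± 0.32 on the log2 scale in the double KO against wild type (adjusted p = 3.34e-05). The interaction was called for 8 of the 25, 7 negative and 1 positive, beside 9.38% of all genes (5.86% negative and 3.51% positive). The number called was 4 to 9 across the alternatives. It fell to 4 without either Scl KO replicate 1, Scl KO replicate 2 or Lyl1 KO replicate 1, and to 5 without either Lyl1 KO replicate 3, double KO replicate 2 or wild type replicate 1. Over all genes the interaction calls fell as well, from 1444 to 684, 740, 671, 911, 888 and 1010 in the same order.

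The 3 that were higher in the double KO against wild type were Vegfa, the vascular growth factor, Serpine2, a thrombin inhibitor, and App, the amyloid precursor protein. Serpine2 and App fall outside the rule for named genes and were chosen after their values were seen. Vegfa was at 87.5 ± 20.0 CPM in double KO, 30.5 ± 0.911 CPM in Scl KO, 33.6 ± 4.56 CPM in Lyl1 KO and 34.1 ± 6.66 CPM in wild type. It rose by 1.36 ± 0.17 on the log2 scale in the double KO against wild type (adjusted p = 0.000113) and by 1.52 ± 0.18 in the double KO against Scl KO (adjusted p = 0.000188), and its interaction was 1.54 ± 0.25 (adjusted p = 0.00348). The call of App was lost without any 1 of the double KO replicates, wild type replicate 2 or wild type replicate 3. Lyl1 KO against wild type had 0 of the 25 called, beside 0.0714% of all genes. Scl KO against wild type had 3 of the 25 lower (Pdgfb, Pdgfa and Vegfc) and 1 higher (Serpine2), beside 5.03% of all genes called (2.73% lower and 2.29% higher). The Serpine2 call was lost without either wild type replicate 1 or wild type replicate 2. The adhesive and plasma proteins Vtn, Fga, Fgb and Fgg, which platelets take up in part or whole from plasma, had no count in any library.

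**Figure D5:**
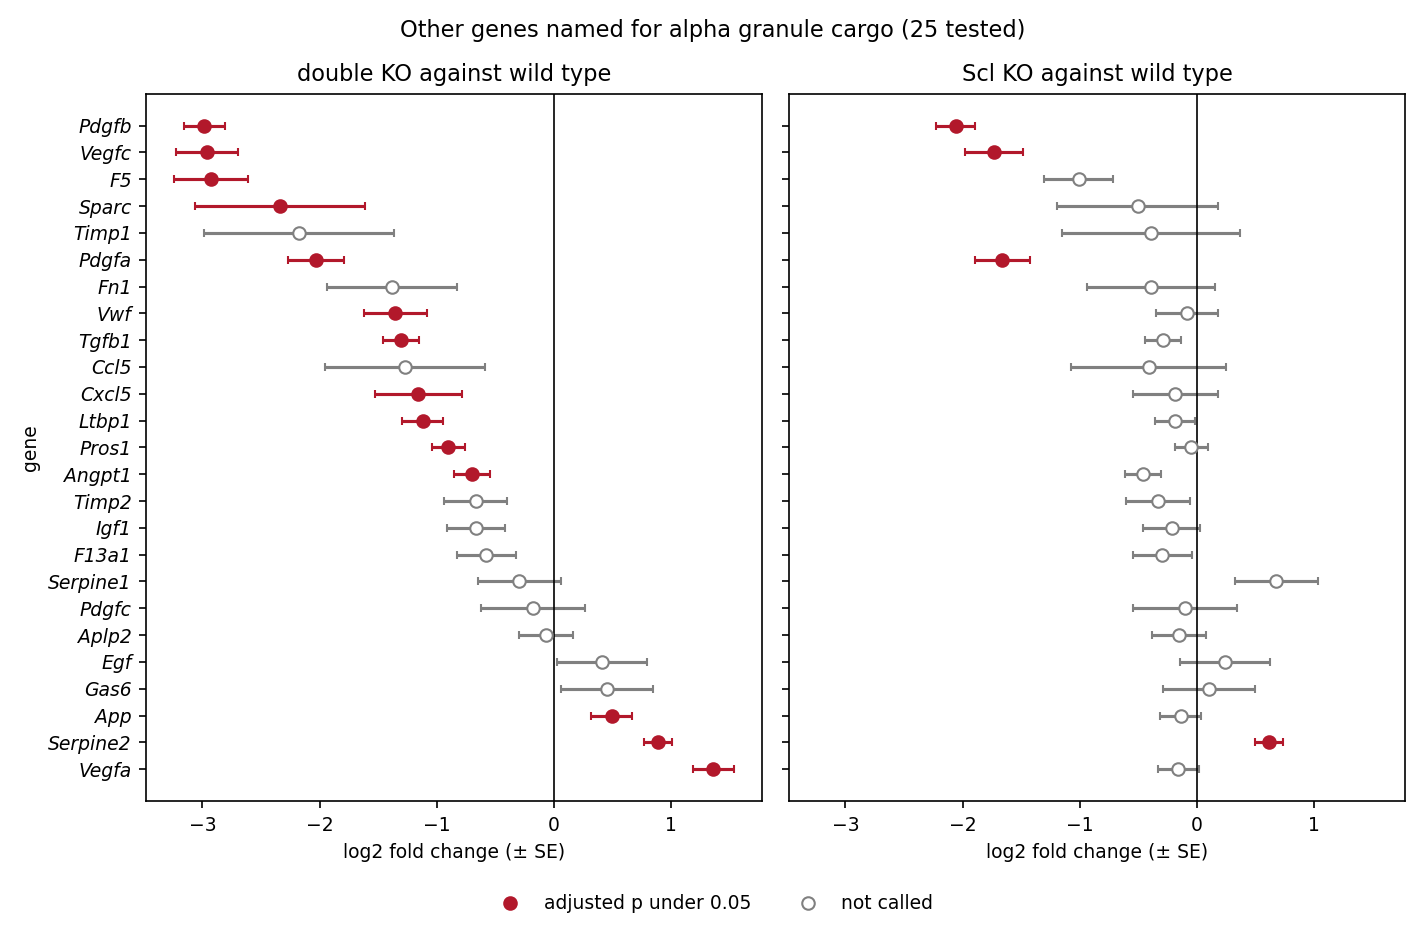
Log2 fold changes ± SE of the 25 other alpha granule cargo genes that could be tested, in the double KO and in Scl KO against wild type, sorted by the first, with filled points for adjusted p under 0.05. In the double KO 11 are lower and 3 higher (18.1% and 16.4% of all tested genes). In Scl KO 3 are lower and 1 higher (2.73% and 2.29% of all tested genes).

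Of 16 receptors and binding partners of the cargo, all tested, 4 were lower and 3 were higher in the double KO against wild type, with a median log2 change of -0.41. This is near the 34.5% of all genes called in that comparison. Vldlr, a lipoprotein receptor that binds clusterin and thrombospondin-1, was at 488 ± 99.3 CPM in double KO, 446 ± 57.7 CPM in Scl KO, 186 ± 18.7 CPM in Lyl1 KO and 176 ± 53.6 CPM in wild type. It rose by 1.47 ± 0.21 in the double KO (adjusted p = 0.000246) and by 1.34 ± 0.21 in Scl KO (adjusted p = 0.00334), each against wild type on the log2 scale. Cd44, the hyaluronan receptor, which also carries P-selectin ligands, was at 300.2 ± 105 CPM in double KO, 754 ± 98.5 CPM in Scl KO, 720 ± 69.1 CPM in Lyl1 KO and 713 ± 78.0 CPM in wild type. It fell by 1.25 ± 0.23 in the double KO against wild type (adjusted p = 0.00126) and by 1.33 ± 0.23 in the double KO against Scl KO (adjusted p = 0.00189). Lyl1 KO against wild type had 0 called, beside 0.0714% of all genes. Scl KO against wild type had 2 higher (Vldlr and Cxcr1, a chemokine receptor) and 1 lower (Kdr, a VEGF receptor), beside 5.03% of all genes called (2.29% higher and 2.73% lower). The Cxcr1 call in Scl KO was also lost with the replicate block, with no filter on low counts and without wild type replicate 1, and the Kdr call without Scl KO replicate 3. Without wild type replicate 3, 3 were higher and 8 lower in the double KO against wild type, beside 5528 of 15911 genes called in that setting. Without either Scl KO replicate 1, Scl KO replicate 2 or wild type replicate 2 only Vldlr was called in Scl KO against wild type. Over all genes the calls there were 450, 420 and 388, against 774 in the main fit.

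Relatives of the cargo genes by family numbered 22, of which 17 could be tested, with 3 higher and 4 lower in the double KO against wild type, beside 34.5% of all genes called, and a median log2 change of -0.67. The higher ones were Cxcl3, Cxcl12 and Thbs3, and the lower ones Mmrn2, Cxcl1, Cxcl5 and Cxcl16. Thbs3, Cxcl5 and Cxcl16 fall outside the rule for named genes and were chosen after their values were seen. The call of Thbs3 was lost with limma-voom, with only the 6 libraries compared and without any 1 of double KO replicate 3, wild type replicate 2 or wild type replicate 3, and that of Cxcl16 was lost under 9 of 14 alternatives. The call of Mmrn2 was lost with limma-voom and without either double KO replicate 2 or wild type replicate 2, and that of Cxcl12 with no filter on low counts. Cxcl12 was at 6.43, 21.7 and 29.1 CPM in double KO, 4.80, 0.82 and 2.66 CPM in Scl KO, 0.0405, 1.36 and 0.51 CPM in Lyl1 KO and 0.833, 3.57 and 2.04 CPM in wild type. The count of called relatives was 3 without a filter on low counts and without wild type replicate 2, and 4 with limma-voom and without either double KO replicate 2 or double KO replicate 3. Over all genes the calls in these settings were 4567, 3899, 5150, 4331 and 4842, against 5312 in the main fit. Cxcl3 was the 1 relative called in Scl KO against wild type (2 were called without Scl KO replicate 3), beside 5.03% of all genes.

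The enzymes that build and sulfate the chains of serglycin formed a list of 20, of which 19 were tested, with 4 higher and 5 lower in the double KO against wild type, beside 34.5% of all genes called, and a median log2 change of 0.04. Among the lower ones, the call of Chst3 was lost with only the 6 libraries compared and without any 1 of double KO replicates 2 and 3 and wild type replicates 1 and 2. That of Papss2 was lost with library totals in place of TMM, with only the 6 libraries compared and without either double KO replicate 1 or wild type replicate 1. Csgalnact2, which starts chondroitin sulfate chains, was at 261 ± 13.1 CPM in double KO, 140.3 ± 22.3 CPM in Scl KO, 85.5 ± 1.85 CPM in Lyl1 KO and 85.4 ± 16.1 CPM in wild type. It rose by 1.61 ± 0.14 on the log2 scale in the double KO against wild type (adjusted p = 9.01e-06). Chsy1, which extends the chains, was at 169 ± 26.6 CPM in double KO, 93.0 ± 6.12 CPM in Scl KO, 58.5 ± 6.63 CPM in Lyl1 KO and 61.0 ± 14.4 CPM in wild type, a rise of 1.47 ± 0.17 in the double KO against wild type (adjusted p = 4.96e-05). Chpf, which also extends them, rose by 2.17 ± 0.35 (adjusted p = 0.000523), while Chsy3 fell by 0.92 ± 0.15 (adjusted p = 0.000533). Scl KO against wild type had Csgalnact2 higher: it rose by 0.72 ± 0.14 (adjusted p = 0.0122), a call that was lost with only the 6 libraries compared and without either wild type replicate 1 or wild type replicate 2, while Chsy3 fell by 1.15 ± 0.15 (adjusted p = 0.000997).

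The genes whose pattern over the 12 libraries was most like that of each cargo gene were found by the root mean square difference of log2 CPM, centred per gene, among 7837 genes with a mean of at least 10 CPM. For Ppbp they were Parvb (0.065), Gp5 (0.11) and Pcp4l1 (0.13), and for Pf4 they included Cpped1 (0.10) and Snrnp25 (0.11). For Thbs1 they were Tspan2 (0.34), Lancl3 (0.40) and Crtam (0.48), and for Mmrn1 Sh2d4b (0.34), Arl5b (0.38) and Ppm1e (0.39). For Srgn they were Flna (0.090), Vcl (0.093) and Hp1bp3 (0.11), for Clu Ehd4 (0.079), Abcb9 (0.081) and Rps6kc1 (0.095), and for Selp Smg8 (0.093), Ttc17 (0.094) and Ddx47 (0.094). For Timp3 they were Parm1 (0.32), Ccdc50 (0.33) and Rnf150 (0.33). The differences are log2 units, and a gene that varies little, such as Selp, is close by this measure to any other that varies little. Among the cargo genes themselves Srgn and Clu were the closest pair, at 0.18, and Thbs1 and Timp3 the most distant, at 2.59.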

How the data were processed

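The 8 cargo genes and all gene lists were chosen with earlier results of these data known. Per the labels, total RNA was made into strand-specific mRNA libraries, and groups and replicate numbers were taken from the labels. The authors deposited 1 table of raw counts per gene for 12 libraries. STAR 2.5.2b aligned the reads to GRCm38, per the submitters' processing notes, and they were counted with featureCounts from Subread 1.5.2. Per the file headers, counting was for the reverse strand, and reads mapping to several places were not counted, so near-identical genes can lose reads. Read trimming is not given in the sources used here. Total counts per library were 24324685 to 29212443.

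The main test was run with edgeR 4.0.16 under R 4.3.3. Low genes were removed with filterByExpr at its defaults (a minimum count of 10 and a minimum total of 15), and TMM factors scaled the libraries. A single quasi-likelihood model was fitted over the 12 libraries, with genotype alone as a term and robust estimates, and genotypes were compared by its F-test. P-values were adjusted by Benjamini-Hochberg over all 15399 genes, with 0.05 as the threshold. Figures were drawn with matplotlib 3.10.9 in Python 3.11.15.

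Alternatives were DESeq2 size factors, library totals, no filter, a filter of 1 CPM in at least 3 libraries, limma-voom (limma 3.58.1), the Wald test of DESeq2 1.42.0, the replicate number as a block, only the 6 libraries compared, and each library left out. The labels do not say that a replicate number marks a shared batch. Deviations of same-numbered libraries from their group means correlated at 0.224, 0.154 and 0.451 between double KO and Scl KO and at 0.102, 0.153 and 0.368 between Scl KO and wild type, all over 0.1. In every other pair of groups at least 1 correlation was under 0.1. Libraries with different numbers were not correlated in this way, so these values cannot show whether a number marks a shared batch. The main test left the number out, and the block is given as an alternative. No library was a repeat of another.

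Besides the 8 genes and the targeted pair, the rule for named genes took, from each other list, up to 4 called genes with the smallest adjusted p in the double KO against wild type and up to 2 in each other comparison. It also took the highest and the undetected markers and the 3 genes closest in pattern, leaving out predicted genes and pseudogenes. A few items that these rules took are not reported here.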

Additional observations from a re-analysis of the deposited data

Results flagged for a closer look

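The effect of losing Lyl1 differed between embryos without Scl and embryos with Scl for 3 of the 8 cargo genes, all negative, by the interaction test of edgeR's quasi-likelihood fit, which called 9.38% of all genes (5.86% negative). The difference was -3.89 ± 0.28 on the log2 scale for Thbs1 (adjusted p = 8.52e-05), where the double KO fell by 3.83 against Scl KO and Lyl1 KO had a log2 change of 0.06 against wild type. It was -0.94 ± 0.21 for Pf4 (adjusted p = 0.0163), where the double KO fell by 0.74 against Scl KO and Lyl1 KO had a log2 change of 0.21 against wild type. It was -1.78 ± 0.47 for Ppbp (adjusted p = 0.0378), where the double KO fell by 1.66 against Scl KO and Lyl1 KO had a log2 change of 0.12 against wild type. The Ppbp difference had the highest adjusted p of these, and adjusted p was between 0.0594 and 0.0906 in the 9 leave-outs that lost it. All 3 double KO libraries lay below all 3 Scl KO libraries for each of these genes, while Lyl1 KO and wild type overlapped. The genes were picked by the interaction in the same libraries, so this pattern describes them and is no separate evidence. The share of all genes with such a pattern was not counted. The summed megakaryocyte markers were also lowest in the double KO, at 6012 to 11869 CPM, and their part in these differences was not tested.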

How the results depend on the processing

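Over the 8 cargo genes, 6 comparisons and all alternatives, 671 values kept their direction and their side of the threshold, 20 lost a call, 13 gained one and 8 changed sign. The sign changes were all of values not called with TMM: Ppbp in Scl KO against wild type (0.0202 with library totals, and -0.183 to 0.0673 with 1 library left out), Selp in the double KO against Lyl1 KO (0.39 with library totals, past the threshold) and in the interaction (0.14 with library totals), Srgn in Lyl1 KO against wild type (-0.179 to 0.0522 with 1 library left out) and in Scl KO against wild type (-0.11 to 0.124), and Thbs1 in Lyl1 KO against wild type (lowest at -0.0013, without wild type replicate 3). The cargo genes called in the interaction numbered 3, but 6 with DESeq2's Wald test, 5 with the replicate block (Srgn and Clu added) and 2 to 5 when 1 library was left out. Among all genes the interaction calls numbered 1444, but 2261 with that Wald test and 2100 with the block. The block changed no other call of a cargo gene.

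Among all genes, the number called in the double KO against wild type was 5312, but 8065 with library totals. In the double KO against Lyl1 KO it was 5422, but 8313 with library totals. In the double KO against Scl KO it was 2947, but 4834 with library totals, 1742 with only the 6 libraries compared and 1645 to 3222 with 1 library left out, lowest without Scl KO replicate 1 (1692 without Scl KO replicate 2). In Scl KO against wild type it was 774, but 1329 with DESeq2's Wald test, 1226 with the replicate block and 388 to 955 with 1 library left out, lowest without wild type replicate 2. In Lyl1 KO against wild type it was 11, but 103 with DESeq2's Wald test, 29 with only the 6 libraries compared and 5 to 41 with 1 library left out, highest without wild type replicate 3. For the interaction it was 1444, but 2261 with DESeq2's Wald test, 2461 with library totals and 671 to 1925 with 1 library left out, lowest without Lyl1 KO replicate 1. Fewer libraries leave fewer degrees of freedom, and the cause of the other shifts was not tested. The same alternatives were run for named genes of the other lists, a choice made after seeing the data.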

Other observations

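In the double KO, the levels of 4 cargo genes followed the order of the summed megakaryocyte markers over the 3 libraries and the levels of others did not. Ppbp, Pf4, Clu and Timp3 were highest in replicate 1 and lowest in replicate 3, as the marker sum was. Mmrn1 and Thbs1 were highest in replicate 2, and Selp was lowest in replicate 1. In Scl KO the marker sum, Ppbp, Thbs1, Mmrn1, Srgn, Selp, Clu and Timp3 were all lowest in replicate 3, while Pf4 was highest there. With 3 libraries per genotype no test of such an order was made.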
